A study of Mus musculus with 13 samples.

Results

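The 26S proteasome is built from a barrel-shaped core particle and a regulatory particle that caps it, and most of the genes described here encode its constitutive subunits. They were chosen by symbol: every gene named Psma, Psmb, Psmc or Psmd followed by a number, without the interferon-inducible immunoproteasome subunits Psmb8, Psmb9 and Psmb10. The rule found 36 of the 24015 genes measured, 16 assigned by symbol to the core particle and 20 to the regulatory particle. Among the core genes it took in the tissue-restricted subunits Psma8 and Psmb11. Among the regulatory genes it took in the assembly chaperones Psmd5, Psmd9 and Psmd10. The rule used no measured value, but the members were chosen with earlier results of these data known. Expression was measured in haematopoietic stem cells (HSCs) from the bone marrow of mouse recipients that had each received 1 Vwf-expressing HSC and were followed for 16 weeks. The product of Vwf, von Willebrand factor, acts in clotting, and part of the HSC compartment transcribes the gene.

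The libraries fell into PLT-HSC (3 libraries, recipients labelled P-restricted), PEM-HSC (6 libraries, recipients labelled PEM-restricted) and MUL-HSC (4 libraries, recipients labelled multilineage). All 3 groups carry the C57BL/6 strain label and the same sort: Lin-Sca1+Kit+ (LSK), Flt3-, CD150+, CD48-, CD45.2+ and negative for Gata1, with 100 cells per library. Age, host conditioning and the reporter alleles behind the Vwf and Gata1 selection are not given in the sources used here. Since each recipient received 1 donor HSC, a library may represent the HSCs of 1 clone, and the labels do not say whether the libraries of a group come from separate recipients. P-values therefore cover just the differences among libraries of a group, part of which may be technical. The comparisons ask how HSCs from lineage-restricted recipients differ from multilineage HSCs and from each other.

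In the core particle, outer rings of alpha subunits gate the entry and inner rings of beta subunits cut proteins, with the active sites in Psmb5, Psmb6 and Psmb7. In the regulatory particle, a base of ATPases (Psmc1 to Psmc6) unfolds substrates, scaffold and ubiquitin-receptor subunits hold them, and a lid removes ubiquitin through Psmd14. Stem cells of the blood are known for a low rate of protein synthesis and for sensitivity to misfolded protein, which the proteasome degrades.

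The libraries held 16371921 to 41367057 gene counts, and 11233 to 12310 genes had at least 1 count. Values are CPM, a gene's count scaled to all gene counts of its library, and a floor of 3 counts equals 0.0725 to 0.183 CPM. Kit, which the sort selected for, ran from 187 to 647 CPM. None of 12 genes on a fixed HSC list was at 0 in all libraries. That list also holds Cd34, Cd48 and Flt3, so counts across it do not measure the sort. Slamf1, which encodes the selected CD150, stood at 133 to 326 CPM across PLT-HSC, 109 to 295 CPM across PEM-HSC and 32.2, 60.9, 200.3 and 63.2 CPM across MUL-HSC. Cd34, a progenitor marker, stood at 23.2 to 66.4 CPM across PLT-HSC, 21.7 to 108 CPM across PEM-HSC and 555, 449, 90.9 and 380 CPM across MUL-HSC. MUL-HSC 1 and MUL-HSC 2 had the lowest Slamf1 and the highest Cd34 of the 13 libraries. Cd48 and Flt3, which encode 2 surface proteins the sort selected against, peaked at 59.0 and 39.2 CPM, both in MUL-HSC libraries. Haemoglobin genes, Ms4a1, Pax5, Cd3e, Cd4 and Cd8a were at 0 in every library, but other markers of these lineages were detected. Over all libraries, summed markers ran from 0.116 to 58.4 CPM for erythroid cells and 93.5 to 184 CPM for B and plasma cells. They ran from 5.83 to 44.1 CPM for T cells, 188 to 725 CPM for neutrophils and 92.2 to 319 CPM for megakaryocytes and platelets. Summed macrophage markers stood at 80.6 to 248 CPM across PLT-HSC and 87.7 to 389 CPM across PEM-HSC, against 36.6 to 61.8 CPM across MUL-HSC, with all 9 measured markers detected. Summed transcripts of 20 mitosis genes ranged from 65.8 to 1477 CPM across PLT-HSC, 274 to 2095 CPM across PEM-HSC and 238 to 1415 CPM across MUL-HSC. The part of any of these in the proteasome values was not tested.

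Proteasome transcripts were abundant in every library. The 36 genes together made up 0.984% to 1.39% of gene counts across PLT-HSC, 1.15% to 1.31% across PEM-HSC and 1.12% to 1.54% across MUL-HSC libraries. Of the 36 genes, 34 were detected in all 13 libraries, and the exceptions were the tissue-restricted subunits Psma8 and Psmb11. The level per kilobase of the longest annotated transcript ran over an 8.64-fold range among the other 14 core genes and a 14.0-fold range among the 20 regulatory genes. The median of 15 core genes, with Psma8 included, was 335 CPM per kilobase and that of the regulatory genes 150 CPM per kilobase. With the median annotated transcript length in place of the longest, these medians were 375 and 203 CPM per kilobase. The order of single genes depends on the length used: Psma3 ranked 23 of 35 by its longest and 7 by its median transcript, and Psmd11 ranked 29 and 11.

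**Figure D1:**
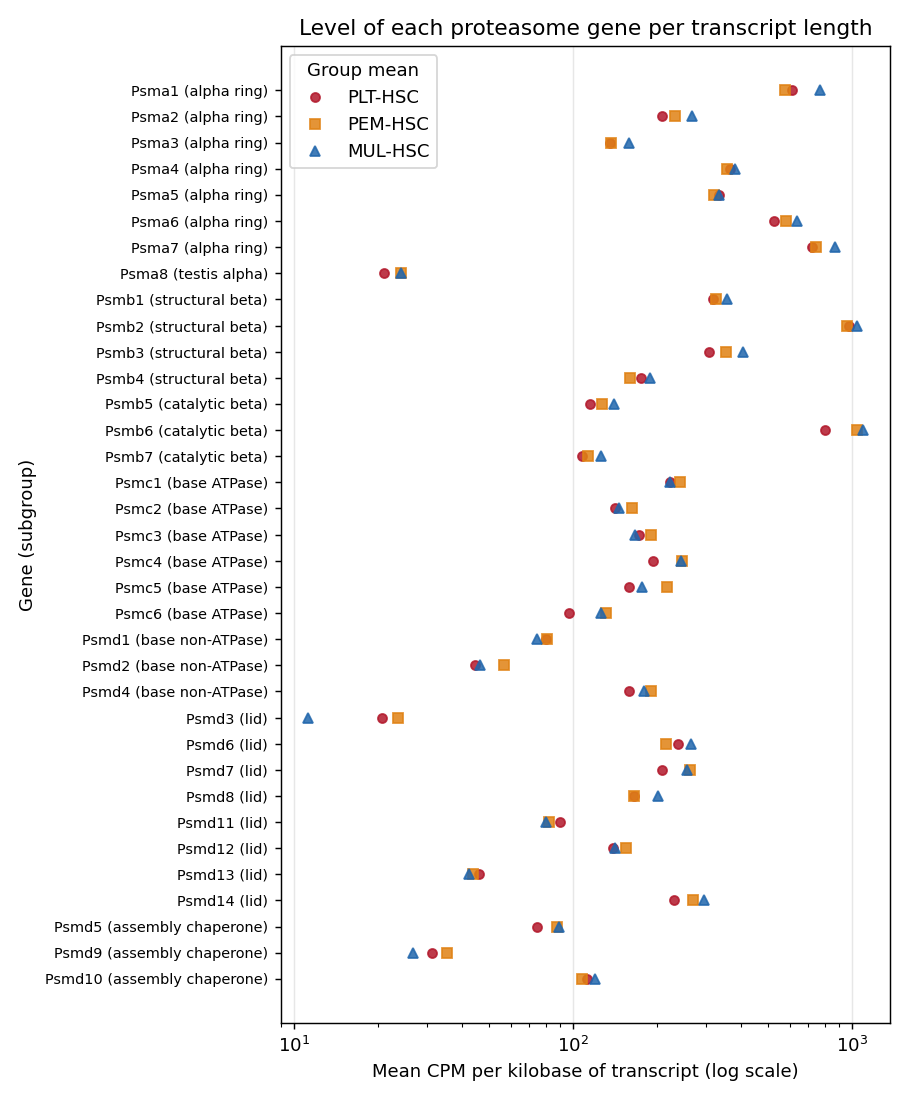
Mean CPM per kilobase of the longest transcript (log scale) for 35 proteasome genes across PLT-HSC (circles), PEM-HSC (squares) and MUL-HSC (triangles), ordered by subgroup. Psmb6 and Psmb2 stand highest near 1000 CPM per kilobase, Psma8 and Psmd3 stand lowest, and the 3 group means of most genes lie close together. Psmb11 is not drawn.

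Among the 3 proteolytic subunits, Psmb6 stood above Psmb5 and Psmb7 per kilobase in every library. Psmb6, which carries the caspase-like site, had the highest level per length of all members, at 1003 CPM per kilobase. Psmb5, the chymotrypsin-like subunit and target of bortezomib, averaged 128 CPM per kilobase, and Psmb7, the trypsin-like subunit, averaged 116 CPM per kilobase. Psmb6 counted 465, 696 and 760 CPM in the PLT-HSC libraries, 747 to 951 CPM with a median of 807 across PEM-HSC, and 881, 1072, 874 and 671 CPM across MUL-HSC. Psmb6 in 2 of the 3 PLT-HSC libraries lay below every PEM-HSC library, and the lowest MUL-HSC library lay within the PLT-HSC range. Psmb5 counted 62.6, 123 and 125 CPM across PLT-HSC, 85.3 to 155 CPM with a median of 111 across PEM-HSC, and 153, 101, 144 and 107 CPM across MUL-HSC. Psmb7 counted 70.4, 190.4 and 116 CPM across PLT-HSC, 88.0 to 174 CPM with a median of 132 across PEM-HSC, and 207, 157, 111 and 113 CPM across MUL-HSC. For both genes the 3 groups overlapped, and PLT-HSC 1 was the lowest of the 13 libraries.

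Promoter sequences are shown for Psmb5 and Psmb6 because these genes carry active sites and hold the antioxidant-type motif TGACNNNGC, and for Psmd14, the regulatory member with the highest level per kilobase of the longest transcript (Psmd6 and Psmd11 exceeded it by the median transcript), because it holds GC boxes. Nfe2l1, a transcription factor that induces proteasome genes when proteasome activity is blocked, binds sites of the antioxidant type. The sequences are the 250 bases before the annotated start, from RefSeq on GRCm38.p6, 5′ to 3′ on the gene's own strand, with matches of the motifs spelled out after them in capitals. A match on the other strand appears as its reverse complement, such as CCGCCC or ATTGG.
Psmb6 promoter, GRCm38.p6 chr11:70525107-70525356, plus strand: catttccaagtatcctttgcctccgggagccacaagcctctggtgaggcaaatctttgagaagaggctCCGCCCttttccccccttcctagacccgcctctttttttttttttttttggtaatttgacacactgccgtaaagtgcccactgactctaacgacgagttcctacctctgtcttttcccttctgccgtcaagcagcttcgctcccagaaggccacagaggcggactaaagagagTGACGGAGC
Psmb5 promoter, GRCm38.p6 chr14:54617996-54618245, minus strand: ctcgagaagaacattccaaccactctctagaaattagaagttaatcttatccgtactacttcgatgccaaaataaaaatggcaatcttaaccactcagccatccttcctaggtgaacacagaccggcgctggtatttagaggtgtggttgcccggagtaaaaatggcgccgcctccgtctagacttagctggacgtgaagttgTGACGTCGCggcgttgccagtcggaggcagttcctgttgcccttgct
Psmd14 promoter, GRCm38.p6 chr2:61711444-61711693, plus strand: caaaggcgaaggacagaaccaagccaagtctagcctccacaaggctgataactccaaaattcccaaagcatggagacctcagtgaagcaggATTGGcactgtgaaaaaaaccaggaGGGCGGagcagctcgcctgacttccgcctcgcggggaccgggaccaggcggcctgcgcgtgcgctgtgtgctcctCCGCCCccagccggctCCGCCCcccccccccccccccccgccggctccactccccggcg
RefSeq held start windows for 29 of the 36 members, 31 windows in all, each reaching from 250 bases before to 50 bases after a start. Both strands were searched. TGACNNNGC was found in 5 of the 31 windows (16.1%), those of Psmb5, Psmb6, Psmc6, Psmd9 and Psmd12, against 12.4% of all 32851 gene windows. TGACTCA, the full AP-1-type site, was in 1 window (3.23%, Psmd9) against 5.20% of all. The CCAAT box was in 38.7% of member windows and 37.4% of all. The GC box GGGCGG was in 18 member windows (58.1%) against 35.7% of all. A match is a run of letters and not a shown binding site. Nfe2l1 itself averaged 13.6 ± 3.71 CPM across PLT-HSC (SD, n = 3), 17.6 ± 9.26 across PEM-HSC (n = 6) and 10.4 ± 5.72 across MUL-HSC (n = 4).

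The structural core subunits form the rest of the barrel. The 7 alpha genes Psma1 to Psma7 had means of 406 to 899 CPM over all libraries, and the structural beta genes Psmb1 to Psmb4 had 205 to 850.3 CPM. The alpha genes summed to 3951 ± 1032 CPM across PLT-HSC, 4038 ± 376 across PEM-HSC and 4685 ± 831 across MUL-HSC. The structural beta genes summed to 1909 ± 405 CPM across PLT-HSC, 1929 ± 187 across PEM-HSC and 2140 ± 379 across MUL-HSC, and the 3 catalytic genes to 869 ± 235, 1077 ± 122 and 1148 ± 190 CPM in these groups. Differences between group means stayed below the larger SD in the alpha and structural beta sums. Psma1 counted 569, 980 and 647 CPM across PLT-HSC, 598 to 762 CPM with a median of 694 across PEM-HSC, and 1233, 916, 783 and 759 CPM across MUL-HSC. Its PEM-HSC libraries overlapped MUL-HSC at 762 against 759 CPM. Psma7, the most counted alpha gene, had 696, 930 and 877 CPM across PLT-HSC, 718 to 985 CPM with a median of 862 across PEM-HSC, and 1041, 1140, 1008 and 845 CPM across MUL-HSC. In bulk libraries, fewer cells with a transcript and less of it per cell cannot be told apart.

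Psma8, the alpha subunit of the testis proteasome that replaces Psma7 during spermatogenesis, was abundant in 4 libraries and at 0 in 7. In PEM-HSC 2 and PEM-HSC 4 it was low but above the floor, with 150 and 90 counts. It counted 107, 0 and 0 CPM in the PLT-HSC libraries, 145, 6.55, 0, 3.22, 0 and 91.5 CPM across PEM-HSC, and 165, 0, 0 and 0 CPM across MUL-HSC. Libraries with at least 90 CPM occurred in all 3 groups, and 7 of 13 libraries had no count, where 3 counts would equal 0.0725 to 0.183 CPM. The 4 high values rested on 2427 to 4067 counts, which include PCR copies. No annotated exon of another gene overlaps Psma8. Of 3952 genes with a mean between 20 and 80 CPM, 2 (0.0506%) were at 0 in at least 7 libraries, and Psma8 is 1 of them. The cut equals Psma8's own 7 libraries at 0 and the range holds its mean of 39.8 CPM. Its place among the 2 was therefore fixed by this choice. Its SD over libraries, 3.68 on the log2 scale, was the largest of the members, and no fold change between groups is given for it. Psmb11, the thymus-specific beta subunit, had 2 counts in PEM-HSC 1 and none elsewhere, which is below the floor.

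**Figure D2:**
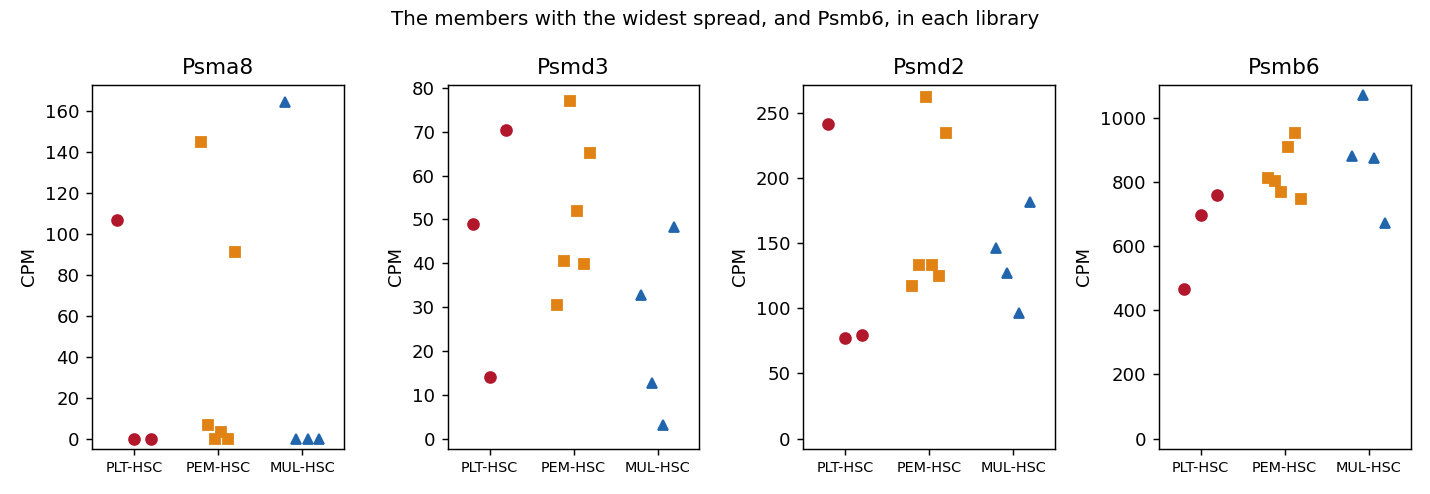
CPM of Psma8, Psmd3, Psmd2 and Psmb6 in each PLT-HSC (circles), PEM-HSC (squares) and MUL-HSC (triangles) library, 1 point per library. Psma8 is at 0 in 7 libraries, at 6.55 and 3.22 CPM in PEM-HSC 2 and PEM-HSC 4, and above 90 CPM in 1 PLT-HSC, 2 PEM-HSC and 1 MUL-HSC library. Psmb6 is high in all.

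The 6 base ATPases, the motor of the regulatory particle, had means of 253 to 369 CPM over all libraries. Their sum was 1630 ± 231 CPM across PLT-HSC, 1962 ± 122 across PEM-HSC and 1786 ± 192 across MUL-HSC. Psmc1 averaged 356 ± 58.5, 385 ± 52.4 and 354 ± 92.2 CPM across PLT-HSC, PEM-HSC and MUL-HSC, and Psmc2 averaged 254 ± 5.89, 292 ± 51.3 and 262 ± 45.4 CPM. For Psmc3 the means were 314 ± 49.3, 347 ± 50.8 and 303 ± 29.3 CPM, and for Psmc6 they were 217 ± 80.1, 295 ± 75.7 and 282 ± 79.0 CPM, in the same order. The group means of these 4 genes differed by less than the larger of the SDs compared. Psmc4 counted 237, 325 and 276 CPM across PLT-HSC, 312 to 395 CPM with a median of 356 across PEM-HSC, and 423, 299.5, 334 and 348 CPM across MUL-HSC. Psmc5 counted 183, 266 and 183 CPM across PLT-HSC, 268 to 347 CPM with a median of 277 across PEM-HSC, and 223, 238, 195 and 277 CPM across MUL-HSC. Psmc5 was the 1 member whose PLT-HSC libraries all lay below its PEM-HSC libraries, with a gap of 266 against 268 CPM, and 1.06% of all tested genes separated this way (1.1% in the opposite direction).

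The other base subunits and the lid held the least even regulatory genes. Psmd2, a base scaffold subunit, counted 241, 77.5 and 79.5 CPM across PLT-HSC, 117 to 262 CPM with a median of 133 across PEM-HSC, and 146, 127, 96.2 and 182 CPM across MUL-HSC. Psmd3, a lid subunit and the lowest per length of the 35 members other than Psmb11, at 19.2 CPM per kilobase, counted 49.0, 14.0 and 70.3 CPM across PLT-HSC, 30.5 to 77.0 CPM with a median of 46.2 across PEM-HSC, and 32.8, 12.8, 3.24 and 48.3 CPM across MUL-HSC. Psmd3 varied 23.8-fold between libraries, and its lowest values stood in 1 PLT-HSC and 2 MUL-HSC libraries. The SD over libraries was 1.23 for Psmd3 and 0.57 for Psmd2 on the log2 scale, against 0.20 for Psmd5, a chaperone of base assembly and the steadiest detected member. Psmd2 was picked for this description after its values were seen. Psmd14, the lid deubiquitinase, counted 277, 473 and 318 CPM across PLT-HSC, 348 to 506 CPM with a median of 415 across PEM-HSC, and 643, 476, 334 and 368 CPM across MUL-HSC. Psmd4, a ubiquitin receptor, counted 208, 302 and 327 CPM across PLT-HSC, 296 to 409.6 CPM with a median of 306 across PEM-HSC, and 264, 362, 371 and 266 CPM across MUL-HSC. Both overlapped between all groups. The 8 lid genes summed to 2013 ± 268 CPM across PLT-HSC, 2134 ± 108 across PEM-HSC and 2247 ± 382 across MUL-HSC, and Psmd5, Psmd9 and Psmd10, chaperones that leave the base once it is assembled, to 570 ± 35.5, 633 ± 22.8 and 635 ± 105 CPM.

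At the median, members varied less than all genes of the same range of means. Between 100 and 1000 CPM, the median SD of log2 CPM over the 13 libraries was 0.27 for 31 members and 0.34 for all 2460 genes, as a description without a test. Over all genes this SD fell with level, from 0.61 at a mean of at least 10 CPM to 0.40 at at least 50 CPM. Levels within the range were not matched, so the part of level in the difference was not tested.

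The levels of core genes followed each other from library to library more closely than those of regulatory genes, as a description without a test. Over 91 pairs of core genes the median Pearson correlation of log2 CPM across the 13 libraries was 0.71, with a range of 0.15 to 0.92. Over 190 pairs of regulatory genes the median was 0.14, with a range of -0.62 to 0.87, and over 280 mixed pairs it was 0.19. Psma8 and Psmb11 were left out, and all pairs share the libraries and their scaling. No such median was taken over other genes of like length and level, so whether the pattern is particular to the core was not tested. PLT-HSC 1 held the lowest value of 11 of the 14 core genes and of 7 of the 20 regulatory genes. MUL-HSC 1 and MUL-HSC 2 together held the highest value of 10 core genes, 6 in the first and 4 in the second. PEM-HSC 3 held the highest value of 6 regulatory genes and of no core gene.

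**Figure D3:**
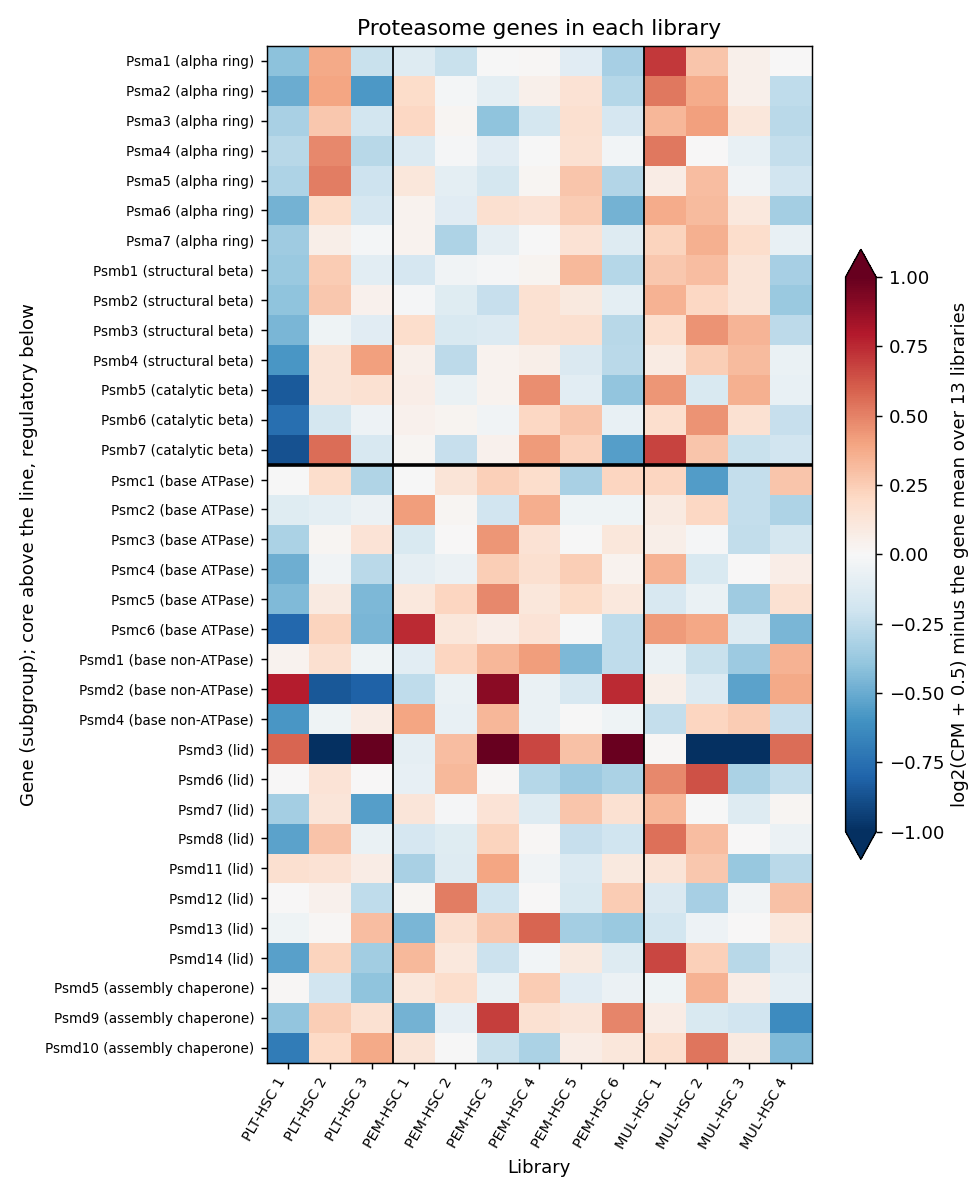
Deviation of each gene's log2(CPM + 0.5) from its own mean over 13 libraries, for 14 core genes (above the line) and 20 regulatory genes (below it), with PLT-HSC, PEM-HSC and MUL-HSC libraries from left to right. The core block is blue through most of PLT-HSC 1 and red through most of PLT-HSC 2, MUL-HSC 1 and MUL-HSC 2, while the regulatory block is mixed and Psmd3 reaches the ends of the colour scale.

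Core transcripts outnumbered regulatory ones in every library. The 16 core genes summed to 5345, 8399 and 6548 CPM across PLT-HSC, 6216 to 7953 CPM with a median of 7086 across PEM-HSC, and 9342, 8845, 7711 and 6160 CPM across MUL-HSC. The 20 regulatory genes summed to 4493, 5458 and 4674 CPM across PLT-HSC, 5050 to 5933 CPM with a median of 5521 across PEM-HSC, and 6012, 5620, 4702 and 5079 CPM across MUL-HSC. These sums include the assembly chaperones Psmd5, Psmd9 and Psmd10, with mean sums of 570, 633 and 635 CPM across PLT-HSC, PEM-HSC and MUL-HSC. The ratio of core to regulatory sums was 1.38 ± 0.18 across PLT-HSC, 1.30 ± 0.16 across PEM-HSC and 1.50 ± 0.19 across MUL-HSC (SD, n = 3, 6 and 4). Single libraries ran from 1.14 to 1.64, and the groups overlapped. As a mean over genes per kilobase, the core exceeded the regulatory particle by 1.07 ± 0.15 log2 units across PLT-HSC, 1.05 ± 0.29 across PEM-HSC and 1.22 ± 0.37 across MUL-HSC. Psma8 weighs on this mean through its zeros, and without it the differences were 1.57 ± 0.28, 1.48 ± 0.21 and 1.77 ± 0.25. These scores carry no test.

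**Figure D4:**
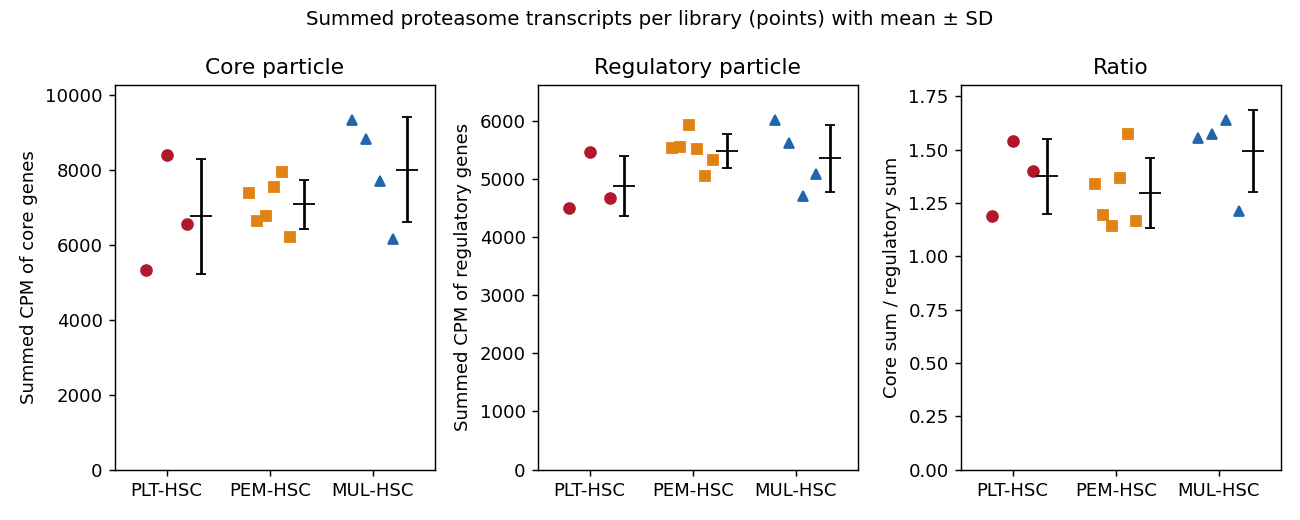
Summed CPM of the 16 core genes (left), of the 20 regulatory genes (middle) and their ratio (right), 1 point per library, with the mean and SD of each group as a bar beside the points. The ratio is above 1 in all 13 libraries, and the groups overlap in all 3 panels.

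Core transcripts are shorter than regulatory ones, with median longest-transcript lengths of 1165 and 1887 nucleotides. Over 8123 other genes, the median deviation of genes of at least 4414.5 nucleotides minus that of genes of at most 1890 nucleotides was 0.39, -0.30 and 0.74 log2 units across PLT-HSC, -0.15 to 0.14 across PEM-HSC, and -0.11, -0.18, -0.13 and 0.34 across MUL-HSC. No member is that long (Psmd5, the longest, has 4397 nucleotides), and both particle medians lie under 1890 nucleotides. The tilt therefore does not measure the length difference between the particles. PLT-HSC 1 and MUL-HSC 4, with tilts of 0.39 and 0.34 toward long genes, had core to regulatory ratios of 1.19 and 1.21, the lowest of their groups. PLT-HSC 3, with the largest tilt, had a ratio of 1.40, and PEM-HSC 3, with the lowest ratio of all, 1.14, had a tilt of -0.08. Across 34 members, the Spearman correlation of a library's deviations with longest-transcript length was 0.50, -0.10 and -0.15 across PLT-HSC. It was -0.33 to 0.41 across PEM-HSC, and -0.35, -0.21, -0.48 and 0.15 across MUL-HSC. The part of transcript length in the ratio was not tested.

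PLT-HSC against MUL-HSC gave no proteasome gene past the test. The test was edgeR's quasi-likelihood test over 12536 genes, with a gene called at a Benjamini-Hochberg adjusted p under 0.05, and 35 members entered it (all but Psmb11). Of all tested genes, 6 were called (0.0479%), and 0 of 35 members were. At an unadjusted p under 0.05 there was 1 member by edgeR, against 7.37% of all genes, and 1 by DESeq2, against 8.62%. Psmb6 had the smallest p, with -0.47 as log2 fold change (SE 0.21, 95% interval -0.91 to -0.03, edgeR adjusted p = 0.647). Psmb3, a structural beta subunit, had 197, 263 and 250.02 CPM across PLT-HSC, against 305, 371, 343 and 227 CPM across MUL-HSC, with -0.41 as log2 fold change (SE 0.22, edgeR adjusted p = 0.760). Psmc4 followed with -0.33 (SE 0.19, edgeR adjusted p = 0.817). None of the 35 members separated the 2 groups without overlap, whereas 3.75% of all tested genes did so upward and 3.04% downward.

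By direction, 13 of 14 core genes, all but Psma5, had negative log2 fold changes in PLT-HSC against MUL-HSC, as did 13 of the 20 regulatory genes, where 47.5% of all tested genes had negative and 52.4% positive ones. Psma8 is left out of these counts because its fitted value turns on single libraries. The median was -0.25 for core genes, -0.09 for regulatory genes and 0.04 for all genes. Core genes vary together, so their 14 signs are not 14 separate observations. MUL-HSC 1 and MUL-HSC 2, the MUL-HSC libraries with the highest core sums, lowest Slamf1 and highest Cd34, weighed on this direction. Without both, 6 of 14 core genes were negative and their median was 0.012, and leaving out the libraries with the highest core values raises this median by construction. Without MUL-HSC 1 alone 11 of 14 core genes were negative (median -0.15), and omitting MUL-HSC 4 gave a core median of -0.37. It was -0.067 without PLT-HSC 1, -0.52 without PLT-HSC 2 and -0.15 without PLT-HSC 3. The regulatory median was 0.0019, with 10 of 20 negative, without PLT-HSC 3, -0.23 without PLT-HSC 2, and -0.039 and -0.040 without PLT-HSC 1 and MUL-HSC 1. Without both MUL-HSC 1 and MUL-HSC 2 it was 0.067. Under the other 3 scalings tried, from library totals to spike-in counts, 13 or 14 core genes were negative. For 32 of 34 members, without Psma8, the 95% interval lay within 1 log2 unit in either direction, and Psmc6 and Psmd3 were the exceptions.

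PEM-HSC against MUL-HSC also gave no member past the test. Of all tested genes 1 was called (0.00798%), and 0 of 35 members were. At an unadjusted p under 0.05 there was 1 member by edgeR, where 5.93% of all genes passed, and 1 by DESeq2, where 6.79% did. Psma1 had the smallest p, with -0.45 as log2 fold change (SE 0.20, 95% interval -0.86 to -0.03, edgeR adjusted p = 0.814). Psmd3 had the largest fold change, 1.06 on the log2 scale (SE 0.58, 95% interval -0.17 to 2.28, edgeR adjusted p = 0.972). Psma7 had -0.26 (SE 0.15, edgeR adjusted p = 0.999). No member separated these groups without overlap, against 0.862% of all tested genes upward and 0.630% downward. All 14 core genes had negative log2 fold changes, against 49.3% of all tested genes, with a median of -0.18, while 14 of 20 regulatory genes had positive ones, against 50.7%, with a median of 0.05. With spike-in scaling 8 of the 20 regulatory genes were positive, the median of all genes shifted to -0.10, and the core median relative to it was -0.055, with 14 of 14 core genes negative. Without MUL-HSC 1 and MUL-HSC 2, 5 of 14 core genes were negative and the core median was 0.090, while 17 of 20 regulatory genes were positive with a median of 0.19. Here too, leaving out the MUL-HSC libraries with the highest core sums raises the core median by construction. Without MUL-HSC 1 alone 12 of 14 core genes were negative (median -0.081), and omitting MUL-HSC 4 gave a core median of -0.30. The regulatory split was 10 to 10 without MUL-HSC 4, with a median of 0.017 where all genes had 0.065, and 11 positive to 9 negative without MUL-HSC 3, with a median of 0.029. The regulatory median was 0.11 without MUL-HSC 1, and among the PEM-HSC libraries it ran from 0.023 without PEM-HSC 3 to 0.094 without PEM-HSC 6. The 95% interval lay within 1 log2 unit for 33 of 34 members, Psmd3 being the exception. The 2 comparisons with MUL-HSC share its 4 libraries.

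PLT-HSC against PEM-HSC compares the restricted groups with each other. No gene was called over all genes by edgeR (0.0%), with 467 genes at an unadjusted p under 0.05, 115 genes called by DESeq2 and 1 by limma voom, and no member was called by any of these tools. The member counts at an unadjusted p under 0.05 were 1 by edgeR, beside 3.73% of all genes, and 2 by DESeq2, beside 4.83%. Psmc5 had the smallest p, with -0.42 as log2 fold change (SE 0.20, edgeR adjusted p = 1). Psmb6, at -0.37 (SE 0.19), and Psmc4, at -0.32 (SE 0.18), came next and did not pass after adjustment. Of the regulatory genes 14 of 20 had negative log2 fold changes (median -0.17), as did 8 of 14 core genes (median -0.018). Of all tested genes 48.5% had negative and 51.5% positive ones. By subgroup, all 6 base ATPases (median -0.25, 5 of 6 without PLT-HSC 3) and all 3 catalytic beta genes (median -0.13) were negative. So were 2 of 3 base non-ATPases (median -0.25), 4 of 8 lid genes and 3 of 7 alpha genes. All genes share the 3 PLT-HSC libraries, so these signs are not separate observations. With spike-in scaling 6 of 14 core genes and 13 of 20 regulatory genes were negative, and the median of all genes was 0.13 against 0.02 with the main scaling. Leaving out PLT-HSC 1 left 2 of 14 core genes negative, with a core median of 0.13, leaving out PLT-HSC 2 left 13 negative, with a median of -0.30, and leaving out PLT-HSC 3 left 6 negative, with a median of 0.076. Without PEM-HSC 5, 5 of 14 were negative, with a median of 0.043. The regulatory median was -0.089, -0.27 and -0.072 without PLT-HSC 1, PLT-HSC 2 and PLT-HSC 3, and -0.11 without PEM-HSC 3. For 31 of 34 members the 95% interval lay within 1 log2 unit, with Psmc6, Psmd2 and Psmd3 as exceptions.

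**Figure D5:**
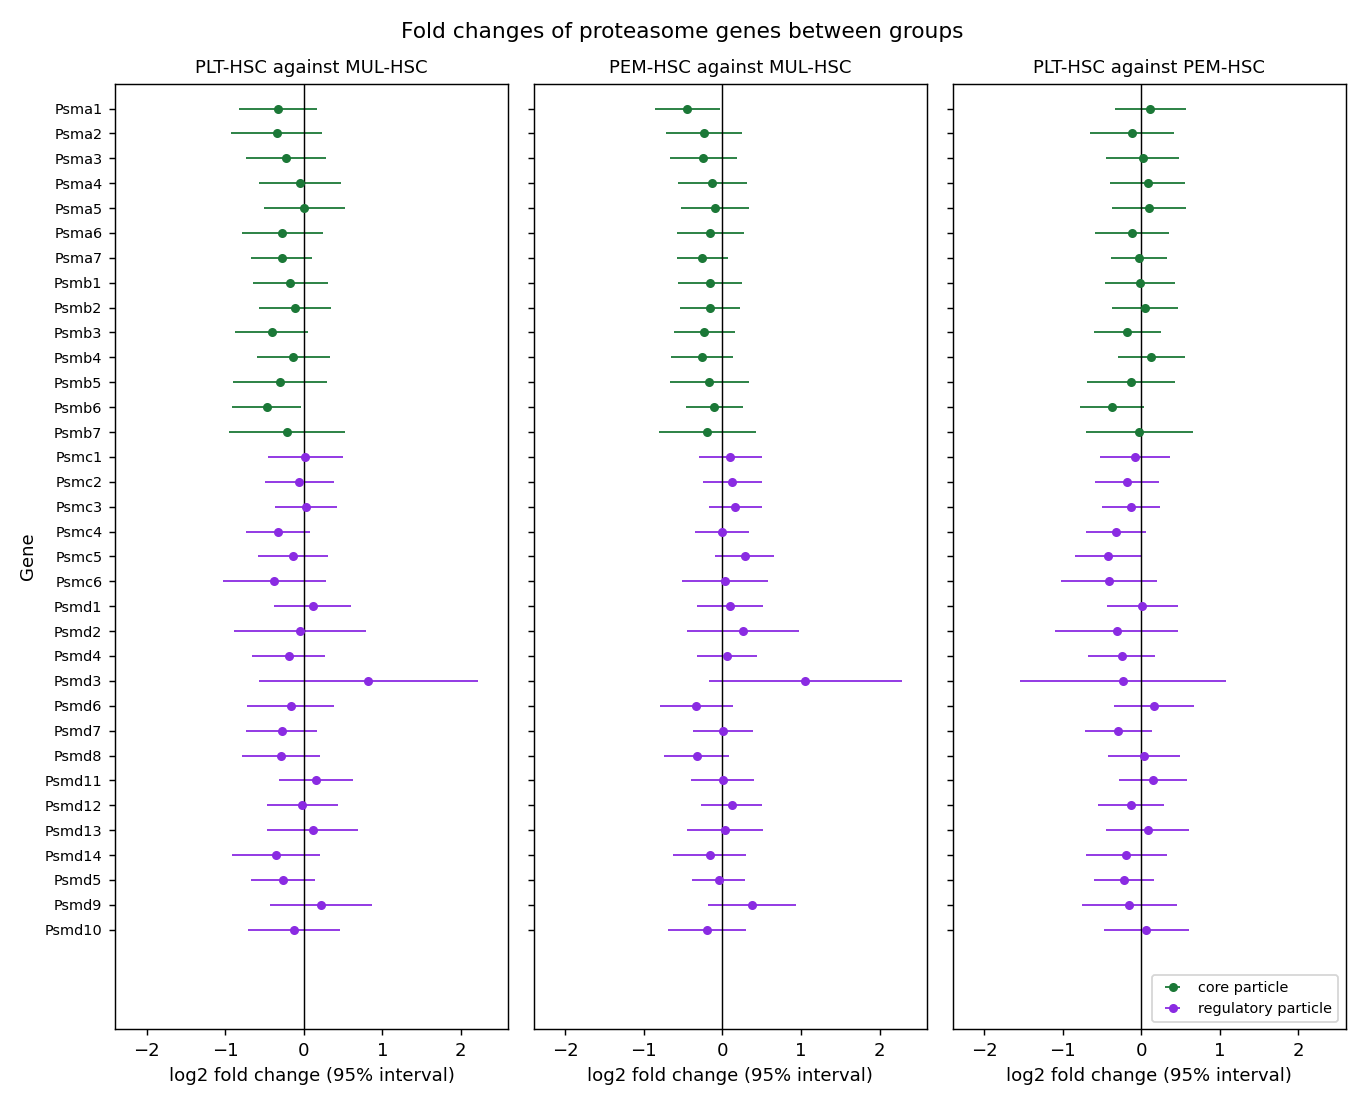
log2 fold change of 34 proteasome genes with its 95% interval in 3 comparisons, for core genes (green, upper part) and regulatory genes (purple, lower part), with Psma8 and Psmb11 left out. Core genes sit mostly left of 0 in the comparisons with MUL-HSC, the intervals of Psma1, Psmb6 and Psmc5 each just miss 0 in 1 panel, Psmd3 has the widest intervals, and no gene passed after adjustment over all genes.

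The immunoproteasome genes replace the catalytic subunits in cells of the immune system, and they were read beside the constitutive ones. Psmb8, which replaces Psmb5, stood at 1489 ± 201 CPM across PLT-HSC, 1826 ± 364 across PEM-HSC and 1643 ± 260 across MUL-HSC. Per kilobase it exceeded Psmb5 in each library, by 5.94-fold to 11.7-fold. Psmb10, which replaces Psmb7, exceeded it by 1.74-fold to 4.23-fold per kilobase. Psmb9, which replaces Psmb6, reached 0.21 to 0.46 of the Psmb6 level per kilobase. Psmb8 to Psmb5 averaged 8.56 ± 2.76 across PLT-HSC, 9.03 ± 2.01 across PEM-HSC and 7.30 ± 1.22 across MUL-HSC. Psmb10 to Psmb7 averaged 3.34 ± 0.88, 3.28 ± 0.60 and 2.62 ± 0.95 in these groups. Psmb9 to Psmb6 averaged 0.39 ± 0.11 across PLT-HSC, 0.28 ± 0.05 across PEM-HSC and 0.24 ± 0.03 across MUL-HSC. No test was run on these ratios. Psmb8, Psmb9 and Psmb10 did not pass in any of the 3 comparisons.

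A fixed list of 43 further gene symbols of the pathway held 38 that were measured, among them the immunoproteasome, proteasome activators, assembly factors, ubiquitin genes and the transcription factors that control subunit genes. Some symbols on the list are other names of a measured gene, such as Ecm29 and Ecpas for AI314180, and Sem1 for Shfm1. None of the 38 was called in any comparison, by edgeR's test over all genes. Of all tested genes, 0.0479% were called in PLT-HSC against MUL-HSC, 0.00798% in PEM-HSC against MUL-HSC and 0.0% in PLT-HSC against PEM-HSC. In the same order, 52.4%, 50.7% and 51.5% of all tested genes had positive log2 fold changes. In PLT-HSC against MUL-HSC 25 had positive and 13 negative log2 fold changes, and 1 did not overlap between groups, Ubqln4, a shuttle for ubiquitinated proteins (log2 fold change 1.38, SE 0.67, edgeR adjusted p = 0.700), where 3.75% of all tested genes separated upward. In PEM-HSC against MUL-HSC the split was 20 to 18, and Psmg2, a chaperone of alpha ring assembly, had the smallest p (log2 fold change -0.54, SE 0.23, edgeR adjusted p = 0.787). In PLT-HSC against PEM-HSC the split was also 20 to 18. Pomp, which guides the assembly of the core, averaged 408 ± 72.8 CPM across PLT-HSC, 400 ± 23.2 across PEM-HSC and 482 ± 81.3 across MUL-HSC. The activator genes Psme1 and Psme2 ranged from 560 to 938 CPM and from 328 to 616 CPM over all libraries.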

How the data were processed

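Per the labels' protocols, polyadenylated RNA of 100 sorted HSCs per library was turned into cDNA with Smart-seq+ and sequenced as Nextera XT libraries, 13 in all. The submitters' processing notes name STAR and featureCounts, after read trimming with Trimmomatic and checks with FastQC, on build mm9. Their versions, the strand setting and the annotation are not known here. The authors deposited raw read counts per gene symbol, together with 92 ERCC spike-in rows, which were left out of library sizes and gene tests. Molecular identifiers were not part of the labelled protocol, so the floor of 3 counts covers counting error only, while intervals of fold changes rest on the spread among libraries in the fit.

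The members and all gene lists were chosen with earlier results of these data known. CPM used each library's gene total, with no further scaling. Counts were tested with edgeR 4.0.16 in R 4.3.3 after filterByExpr (12536 genes), with TMM scaling and a robust quasi-likelihood fit over all 13 libraries with a group term, which gives all 3 comparisons a common spread. Benjamini-Hochberg adjustment ran over all tested genes at 0.05. The SE was taken from the fold change and its F statistic, and intervals from the fit's degrees of freedom. The core minus regulatory score used log2 of CPM plus 0.5 per kilobase, for members with a mean of at least 1 CPM. Named were the catalytic subunits, the highest and lowest members per kilobase in each particle, Psmd14, Psmd4, Psmc1 to Psmc6, the 3 smallest p-values of each comparison, the largest and smallest SD, and the tissue-restricted subunits. Alternatives used DESeq2 1.42.0 and limma 3.58.1. The script was tested on simulated counts. Python 3.11.15 with pandas 2.3.3 and SciPy 1.17.1 made the summaries.

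Transcript lengths are from GENCODE M21 on GRCm38, not the authors' build, and no coordinate was moved between builds. In that annotation 9 members (Psma4, Psma5, Psmb5, Psmb7, Psmc3, Psmd1, Psmd3, Psmd9 and Psmd13) share exon sequence with another gene, and without a known strand setting such reads cannot be told apart. RefSeq lists 6 pseudogenes of Psma5, Psmb5, Psmb6 and Psmb7 that have no row among the counts, so reads shared with them make those levels uncertain. Replicates differed by more than sampling noise, with a chi-square per degree of freedom of at least 162.5 for each pair within a group.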

Additional observations from a re-analysis of the deposited data

Results flagged for a closer look

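Each group of 4 or more libraries was searched for 1 library far from the others, by a gap test that flags about 1 in 20 groups by chance. Of 76 sets of values searched, 3 were flagged. Psma8 stood at 164.7 CPM in MUL-HSC 1, while the other 3 MUL-HSC libraries were at 0. Psmc5 stood at 347 CPM in PEM-HSC 3, where the next library had 289 and the lowest 268 CPM. Psmc6 stood at 441 CPM in PEM-HSC 1, where the next library had 289 and the lowest 220.3 CPM.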

How the results depend on the processing

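No member was called in any comparison under any alternative, and 935 values of named genes kept their side of the threshold. Of the values that summarise a comparison or a group, 195 held and 52 moved. Numbers of calls held when equal or close in size, whichever genes and direction were called. The 1 limma voom call in PEM-HSC against MUL-HSC held, though it was lower and edgeR's was higher. Median fold changes held within the pooled SD of library medians, and core minus regulatory scores within their group's SD. Leaving out 1 library cannot shift a group mean that far, so those scores held by construction. The number of genes called over all genes moved most. PLT-HSC against MUL-HSC had 6 calls, and 0 with spike-in scaling, 11 without a filter on low counts, 13 with at least 10 CPM in 3 libraries, 0 with limma voom, 262 with DESeq2, 1 with only the 2 groups, 1 without both MUL-HSC replicates 1 and 2, and 1 to 37 with single libraries left out. PEM-HSC against MUL-HSC had 1 call, and 0 with spike-in scaling, 177 with DESeq2, 0 with only the 2 groups, and 0 to 4 with single libraries left out. PLT-HSC against PEM-HSC had 0 calls, and 1 with limma voom, 115 with DESeq2, and 0 to 2 with single libraries left out. With the replicate number as a block the calls were 2, 0 and 0. Same-numbered libraries of different groups correlated at -0.13 to 0.05 in their deviations, so the numbers were not taken to pair them. The median log2 fold change of the members was -0.17 in PLT-HSC against MUL-HSC (-0.39 to -0.039 with single libraries left out, 0.060 without both MUL-HSC replicates 1 and 2), -0.09 in PEM-HSC against MUL-HSC (-0.21 to -0.0029, and 0.12) and -0.12 in PLT-HSC against PEM-HSC (-0.27 to 0.022, positive without PLT-HSC replicate 1). The core minus regulatory score across PLT-HSC, PEM-HSC and MUL-HSC was 0.45, 0.37 and 0.57 from summed CPM without length, 0.39, 0.36 and 0.53 when Psmb11 was included, 1.57, 1.48 and 1.77 without Psma8 (an alternative chosen after seeing the data), and 0.83 across PLT-HSC with median transcript lengths. With single libraries left out it was 1.02 to 1.15, 0.96 to 1.14 and 1.08 to 1.38. Why these values moved was not tested. Of the members, Psmb11 alone stayed under the floor of 3 counts in every library, so differences in it were not detectable at this depth.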

Other observations

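Across the 13 libraries, the genes whose log2 CPM followed Psmb5 most closely among 8682 genes with a mean of at least 10 CPM were B9d2 (Pearson r 0.89), Nudt2 (0.88), Atp5d (0.87), Atp5g3 (0.87) and Thyn1 (0.87). Atp5d and Atp5g3 encode subunits of the mitochondrial ATP synthase. These values rank genes by likeness, and the libraries and their scaling are shared by all of them.

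Of the genes next to Psma8, Ss18 was detected in every library, at 152, 73.1 and 67.6 CPM across PLT-HSC, 46.9 to 177 CPM across PEM-HSC and 88.5, 118, 67.4 and 141 CPM across MUL-HSC. Taf4b was at 9.99, 0.58 and 0.28 CPM across PLT-HSC, 21.5, 10.3, 24.3, 13.5, 0 and 16.6 CPM across PEM-HSC and 54.0, 15.5, 40.4 and 13.6 CPM across MUL-HSC. Taf4b encodes a TFIID subunit known from germ cells. In PLT-HSC and MUL-HSC its highest library was the one with high Psma8, and in PEM-HSC it was PEM-HSC 3, where Psma8 was at 0.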
